A study of Mus musculus with 6 samples.

Results

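The 8 genes Phgdh, Psat1, Psph, Shmt1, Shmt2, Mthfd1, Mthfd2 and Asns were followed in RNA-Seq data of mouse sciatic nerve. They were taken by symbol from the 24015 gene symbols of the count tables, for their places in serine synthesis, one-carbon metabolism and asparagine synthesis, and all 8 were present. Of these, 7 passed the filter on low counts and were tested among 11371 genes, while Shmt1 did not pass. The question was whether RNA levels of these enzymes differed between control nerves and nerves in which Schwann cells lacked Rnf40, a subunit of the E3 ligase that monoubiquitinates histone H2B.

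There were 3 libraries per genotype, each made from a pool of 3 nerves taken at postnatal day 14 (P14). Control mice (ctrl) were Rnf40 fl/fl without Cre, and Rnf40 cko mice carried the same floxed alleles together with a Dhh::Cre transgene. Dhh::Cre is active in the Schwann cell lineage from late precursor stages onward, and whole nerve also holds fibroblasts, perineurial, vascular and immune cells. The labels give a mixed 129SvJ/C57Bl/6J background for both genotypes, whereas the methods of the study name C3H in place of 129SvJ. Library totals were 1317167, 1992622 and 2468765 counts in controls and 2184268, 1459387 and 2186710 counts in Rnf40 cko. In CPM, the unit in which counts are divided by library sizes after adjustment for RNA composition (TMM), a single read stood for 0.411 to 0.818.

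Phgdh, Psat1 and Psph catalyse the consecutive steps that turn the glycolytic intermediate 3-phosphoglycerate into serine. Shmt1 in the cytosol and Shmt2 in mitochondria convert serine to glycine and pass a carbon unit to folate, which Mthfd1 and Mthfd2 interconvert for purine, thymidylate and methionine metabolism. Serine is also a building block of the sphingolipids and phosphatidylserine of myelin. Several of these genes, and Asns, which makes asparagine, are textbook targets of ATF4, a transcription factor whose translation rises when the initiation factor eIF2 is phosphorylated.

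The gene targeted in the mice was examined first. Its loxP sites flank only part of the gene, and other cells of the nerve keep Rnf40. Gene-level counts therefore do not measure the deletion in Schwann cells, which the study found by staining to be complete at birth. Rnf40 (chr7:134732212-134747119, plus strand, NCBIM37) had 82, 116 and 165 counts in control libraries and 109, 75 and 118 counts in Rnf40 cko libraries. After scaling to a common library size these were 127, 123 and 138 against 87.7, 87.9 and 91.5 normalized counts, so that every Rnf40 cko library lay below every control library. Rnf40 had a log2 fold change of -0.54 ± 0.14 (SE, n = 3 per genotype; adjusted p = 0.00243 in the quasi-likelihood test of edgeR with Benjamini-Hochberg adjustment), and it was -0.27 with adjusted p = 0.116 by the same test when libraries were scaled by total counts, which moved the median of all tested genes to 0.26. Schwann cell identity of the tissue was visible in the transcription factor gene Sox10, with 603, 968 and 1259 counts in controls and 760, 476 and 742 counts in Rnf40 cko, and in S100b with 407 or more counts in each library.

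Psat1 was the only member that passed the test, and it was lower in Rnf40 cko nerves. Thus 0 of 7 tested members were higher and 1 of 7 was lower at an adjusted p of at most 0.05, against 15.5% of all tested genes higher and 16.2% lower, or 31.6% in either direction (quasi-likelihood test of edgeR with Benjamini-Hochberg adjustment). No member was higher at an unadjusted p under 0.05 or by DESeq2 either. The median log2 fold change of the 7 tested members was -0.03, beside -0.002 over all tested genes. Libraries of the genotypes did not overlap in normalized counts for 1 tested member, again Psat1, while this held for 43.5% of all tested genes, with 22.0% having Rnf40 cko on the higher and 21.6% on the lower side. Under the stricter limits of the study, which add an absolute log2 fold change of 0.8 and a base mean of 20 as minimum values, 0 members passed, as compared to 8.64% of tested genes. These shares do not set the members apart from the background.

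**Figure D1:**
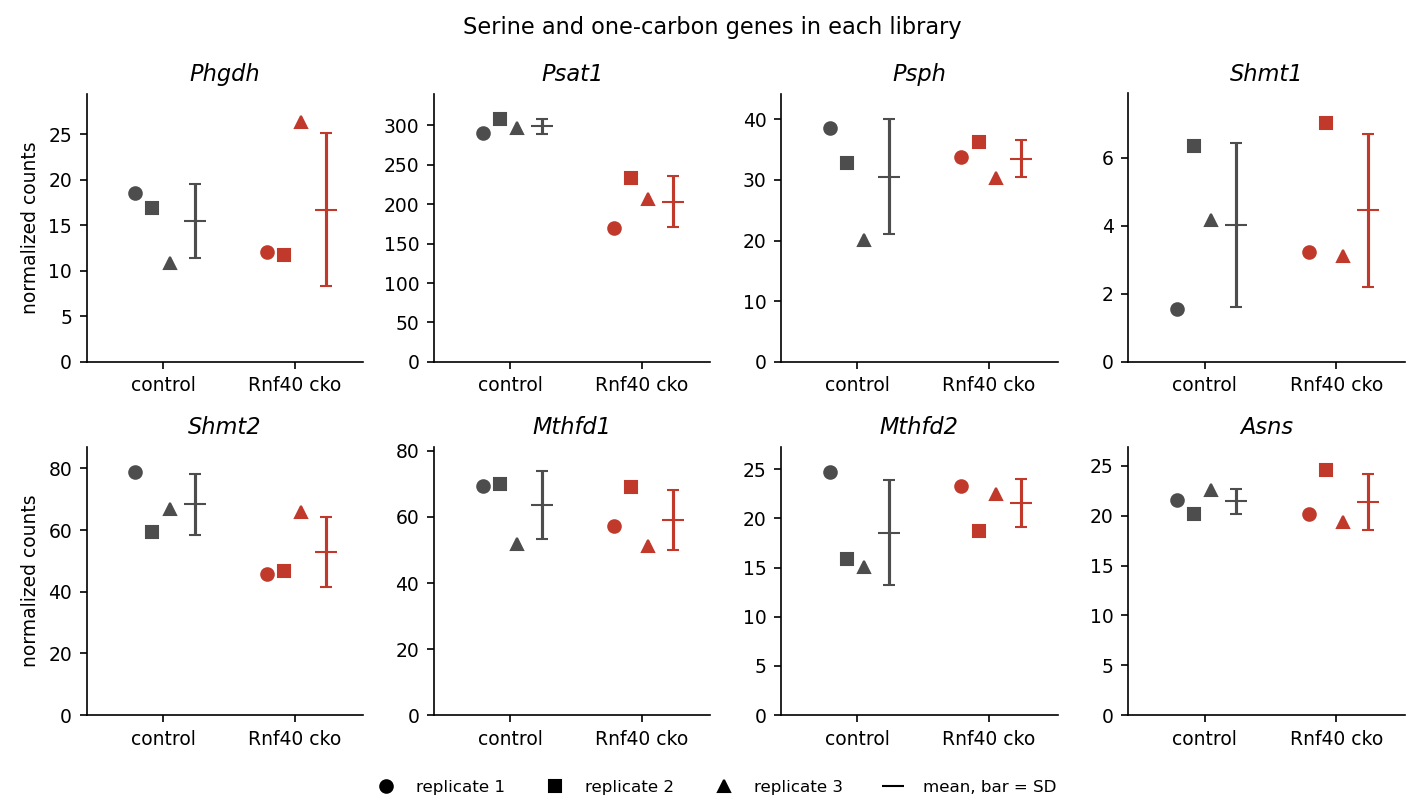
Normalized counts (vertical axes, each starting at 0) of the 8 genes in the 3 control libraries (gray) and 3 Rnf40 cko libraries (red); marker shapes give replicate numbers, and horizontal ticks with bars give mean and SD. Psat1 shows no overlap, with 290 to 308 normalized counts in controls and 170 to 233 in Rnf40 cko, and the other 7 genes overlap.

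In the serine pathway itself, Psat1, the phosphoserine aminotransferase, was the most abundant member. Psat1 (chr19:15979168-16021827, minus strand, NCBIM37) had 188, 291 and 355 counts in controls and 211, 199 and 267 counts in Rnf40 cko libraries, corresponding to 290, 308 and 297 against 170, 233 and 207 normalized counts. Control libraries lay close together and all 3 Rnf40 cko libraries lay below them, with replicate 1 lowest. Means were 298 ± 9.07 in controls and 203 ± 31.9 in Rnf40 cko (normalized counts; SD, n = 3 each). In the fit, Psat1 fell by 32.4%, a log2 fold change of -0.56 ± 0.11 (SE; 95% confidence interval -0.79 to -0.34; adjusted p = 0.000111 in the quasi-likelihood test of edgeR with Benjamini-Hochberg adjustment). Psat1 passed at an adjusted p of at most 0.05 in all 12 alternative fits, though not under the stricter limits, and its fold change was smallest with total-count scaling, where the log2 fold change was -0.30 with adjusted p = 0.0350 by the same test. From these counts of whole nerve RNA alone, fewer cells of a type and less RNA per cell cannot be told apart, for this and all following genes. What the study found by staining cells is given with the markers below.

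Phgdh, the dehydrogenase that opens the pathway, gave far fewer reads. Phgdh (chr3:98117093-98143913, minus strand) had 12, 16 and 13 counts in controls and 15, 10 and 34 counts in Rnf40 cko. In normalized counts, controls held 18.5, 16.9 and 10.9 and Rnf40 cko held 12.1, 11.7 and 26.4, so that replicate 3 of Rnf40 cko was the highest and the other two Rnf40 cko libraries lay within the control range. The log2 fold change of 0.20 ± 0.36 (SE; 95% confidence interval -0.54 to 0.94; adjusted p = 0.718 in the quasi-likelihood test of edgeR with Benjamini-Hochberg adjustment) turned to -0.31 without replicate 3 of Rnf40 cko and to -0.04 without control replicate 3. As fold changes, the bounds of this interval are 0.689 and 1.92.

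The Phgdh counts are uncertain for an additional reason. Of all 50-base windows of its longest GENCODE vM1 transcript, 73.7% occurred elsewhere in the mouse genome, where 20 stretches of at least 200 bases matched the transcript at 90% identity or more, the longest over 1849 bases at 94.6%. Since the authors kept uniquely mapped reads, reads from such windows may have been left out of the deposited counts. The corresponding share was 0.662% for Psat1 and 0% for Psph, Shmt1, Shmt2, Mthfd1, Mthfd2 and Asns. Read length is not given in the sources used here, so the 50-base window was a choice and may differ from it.

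Psph, the phosphatase that releases serine, had 25, 31 and 24 counts in controls and 42, 31 and 39 counts in Rnf40 cko. Its normalized counts of 38.6, 32.8 and 20.1 in controls spanned those of all Rnf40 cko libraries (33.8, 36.3 and 30.2). Its log2 fold change was 0.18 ± 0.25 (SE; 95% confidence interval -0.33 to 0.69; adjusted p = 0.630 in the quasi-likelihood test of edgeR with Benjamini-Hochberg adjustment), and -0.09 without control replicate 3, the lowest library. The enzymes before and after Psat1 in the pathway therefore did not pass, and whether their fold changes differ from that of Psat1 was not tested.

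Among the hydroxymethyltransferases, mitochondrial Shmt2 had 51, 56 and 80 counts in controls and 57, 40 and 85 counts in Rnf40 cko. Normalized counts were 78.7, 59.3 and 66.9 against 45.9, 46.9 and 65.9. Replicates 1 and 2 of Rnf40 cko lay below all controls, and replicate 3 lay among them. For Shmt2, the log2 fold change of -0.34 ± 0.19 (SE; 95% confidence interval -0.72 to 0.05) did not pass with adjusted p = 0.178 (quasi-likelihood test of edgeR with Benjamini-Hochberg adjustment), whereas without replicate 3 of Rnf40 cko it was -0.53 with adjusted p = 0.0395 by the same test, so that 2 members then passed. Cytosolic Shmt1 had 1, 6 and 5 counts in controls and 4, 6 and 4 in Rnf40 cko, too few for a test. Shmt1 shares 184 exon bases with Smcr8, and Shmt2 shares 14 with Ndufa4l2, both on the opposite strand, and the strand setting of the counting is not given in the sources used here.

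Replicate 3 of Rnf40 cko also differed from the other libraries of its genotype in skeletal muscle transcripts. The summed level of 8 muscle markers was 3738, 2779 and 2071 CPM in controls and 81.0, 206 and 2673 CPM in Rnf40 cko, with Myh4 most abundant and none of the 8 at 0 in all libraries. Standard errors of their log2 fold changes were 1.07 to 1.62, and the markers did not pass. The part of muscle RNA in the values of Phgdh and Shmt2 was not tested.

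The folate interconversion enzymes did not pass. Mthfd1, the trifunctional cytosolic enzyme, had 45, 66 and 62 counts in controls and 71, 59 and 66 in Rnf40 cko, or 69.5, 69.9 and 51.9 against 57.1, 69.1 and 51.2 normalized counts. Each genotype thus had a low replicate 3, and the ranges overlapped almost completely. The log2 fold change of -0.10 ± 0.19 (SE; 95% confidence interval -0.48 to 0.28; adjusted p = 0.716 in the quasi-likelihood test of edgeR with Benjamini-Hochberg adjustment) became 0.005 without replicate 3 of Rnf40 cko. Mitochondrial Mthfd2 had 16, 15 and 18 counts in controls and 29, 16 and 29 in Rnf40 cko. Its normalized counts of 24.7, 15.9 and 15.1 in controls enclosed the 23.3, 18.7 and 22.5 of Rnf40 cko. Mthfd2 had a log2 fold change of 0.28 ± 0.31 (SE; 95% confidence interval -0.34 to 0.91; adjusted p = 0.525 by the same test), which was 0.49 without control replicate 1 and 0.14 without control replicate 3.

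Asns, the asparagine synthetase, had nearly the same level in both genotypes. It had 14, 19 and 27 counts in controls and 25, 21 and 25 counts in Rnf40 cko, or 21.6, 20.1 and 22.6 against 20.1, 24.6 and 19.4 normalized counts. The control range lay inside that of Rnf40 cko, and the means were 21.4 ± 1.24 and 21.4 ± 2.83 (SD, n = 3 each). The log2 fold change was -0.03 ± 0.29 (SE; 95% confidence interval -0.61 to 0.56; adjusted p = 0.959 in the quasi-likelihood test of edgeR with Benjamini-Hochberg adjustment). Its sign depended on the libraries kept, as it was 0.02, 0.02 and 0.05 without control replicate 3, Rnf40 cko replicate 1 and Rnf40 cko replicate 3. The interval allows for changes from 0.654-fold to 1.48-fold.

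Because Psat1 fell and Asns did not pass, stretches upstream of their start sites are shown. They come from the RefSeq promoter table (GRCm38.p6), which holds 9 entries for the 8 members, and were placed on NCBIM37 by their only exact match. The Psat1 stretch is chr19:15999550-15999799 on the minus strand, 250 bases ending just before the more upstream of its 2 listed starts. In GENCODE vM1 it lies within the Psat1 gene and holds 0 exon bases. The Asns stretch is chr6:7643225-7643459 on the minus strand, 235 bases that run from 250 to 16 bases before the start, and its last 30 bases are exonic in GENCODE vM1. Capitals mark the letters TGATGNAA, the core of the C/EBP-ATF response element through which ATF4 is known to act.
Psat1: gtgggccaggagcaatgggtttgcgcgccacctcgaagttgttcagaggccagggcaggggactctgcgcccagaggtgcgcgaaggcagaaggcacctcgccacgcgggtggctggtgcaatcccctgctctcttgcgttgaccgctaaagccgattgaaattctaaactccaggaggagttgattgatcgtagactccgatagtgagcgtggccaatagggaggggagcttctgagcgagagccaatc
Asns: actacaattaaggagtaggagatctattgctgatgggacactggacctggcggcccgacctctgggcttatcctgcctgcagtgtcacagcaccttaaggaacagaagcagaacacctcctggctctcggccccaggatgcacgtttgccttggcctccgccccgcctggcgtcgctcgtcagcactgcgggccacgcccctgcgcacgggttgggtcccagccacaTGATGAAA
The motif was sought on both strands from 250 bases before to 50 bases after each start. It was present as TGATGAAA, beginning 23 bases before the start, in Asns and in no other entry of the members, and in 3.97% of all 32851 entries of the table. The E-box CACGTG, sought likewise, was present in 0 of the 9 entries and in 7.15% of all. A match is only a description of the letters, and no binding was measured here.

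Levels were compared between genes per kilobase of exon. In controls, Psat1 stood at 37.2 ± 1.13 CPM per kilobase (SD, n = 3), followed by Shmt2 at 15.9 ± 2.27, Mthfd1 at 10.2 ± 1.64 and Psph at 8.89 ± 2.76. Asns at 4.15 ± 0.241, Mthfd2 at 3.61 ± 1.04 and Phgdh at 3.29 ± 0.860 CPM per kilobase came next, and Shmt1 was lowest at 0.550 ± 0.329. Among neighbours in this order, Mthfd1 and Psph differed by less than either SD, and so did Mthfd2 and Phgdh, while Asns and Mthfd2 differed by less than the SD of Mthfd2 but by more than that of Asns. In Rnf40 cko, Psat1 remained the highest at 25.3 ± 3.97 and Shmt2 had 12.3 ± 2.63, Psph 9.75 ± 0.890 and Mthfd1 9.43 ± 1.46 CPM per kilobase. The ratio of mean levels of Psat1 to Phgdh was 11.3 in controls and 7.11 in Rnf40 cko. When CPM were related instead to 1000 windows of 50 bases not found elsewhere in the genome, control levels were 62.0 ± 1.88 for Psat1, 16.9 ± 4.41 for Phgdh, 16.2 ± 2.32 for Shmt2 and 5.78 ± 0.335 for Asns. These windows are those of a single transcript, whereas exon length covers the gene, and the level of Psat1 also changed although 0.662% of its windows are repeated.

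**Figure D2:**
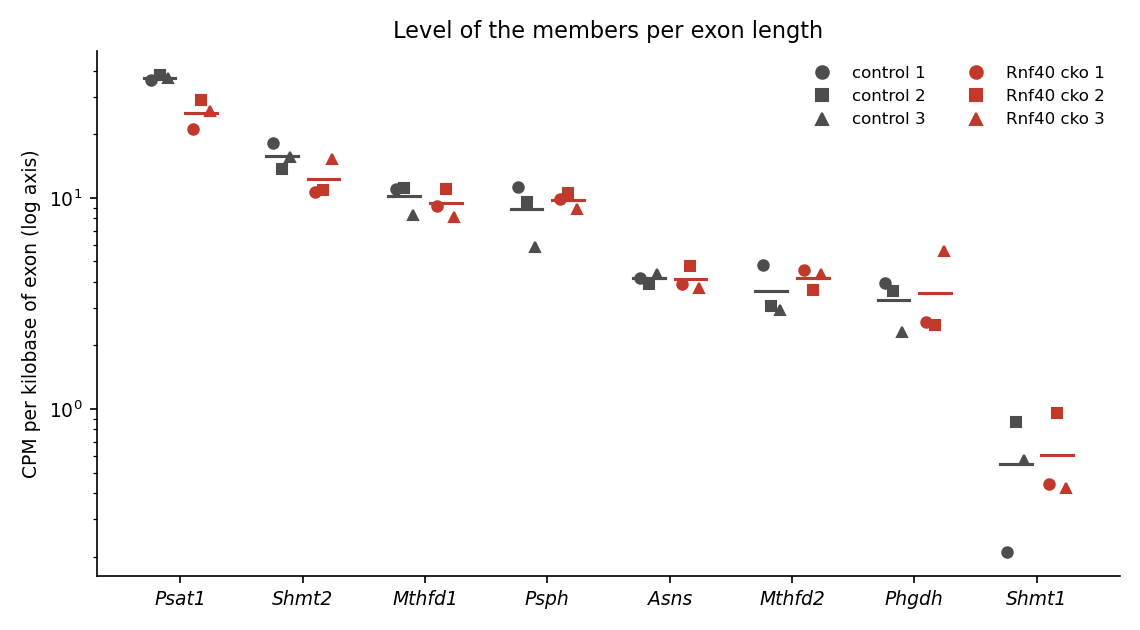
Level of each member in CPM per kilobase of exon (logarithmic vertical axis) in 3 control (gray) and 3 Rnf40 cko libraries (red), ordered by control mean; points are libraries and horizontal lines are means. Control means range from 37.2 for Psat1 to 0.550 for Shmt1.

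Genes with profiles most like those of Phgdh and Asns over the 6 libraries were looked up where the base mean was 20 or more, by root mean square difference of centred log2 CPM. For Asns these were Hsbp1 with a difference of 0.03, Scamp2 and Vps26a with 0.04 each, and Laptm4b and Crem with 0.04 each, as compared to a median of 0.26 over 9251 genes. For Phgdh they were BC024978 with 0.12, Lig1 with 0.15, Arid5b with 0.16, Naca with 0.17 and Tuba8 with 0.18, beside a median of 0.48 over 9252 genes. None of these 10 genes passed the test, the lowest adjusted p being 0.513 for Lig1 (quasi-likelihood test of edgeR with Benjamini-Hochberg adjustment). Since they were chosen for likeness to genes that did not pass, over the same libraries, this is a description of the choice and no further result.

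Of 20 other listed enzymes and carriers of the folate cycle 16 were tested, of which 2 rose and 6 fell at an adjusted p of at most 0.05 (quasi-likelihood test of edgeR with Benjamini-Hochberg adjustment), beside 15.5% of all tested genes higher and 16.2% lower. For this list the median log2 fold change was -0.30, or -0.03 with total-count scaling, where the median of all genes was 0.26. Atic, an enzyme of purine synthesis that uses formyl-folate, had 58.7, 77.3 and 72.8 normalized counts in controls and 29.0, 45.7 and 44.2 in Rnf40 cko. All Rnf40 cko libraries were below all controls, and Atic fell by 0.84 on the log2 scale (SE 0.20, adjusted p = 0.00121) and passed in all 12 alternative fits. By contrast Gart, which acts earlier in purine synthesis, rose from 106, 85.8 and 77.0 to 136, 116 and 123 normalized counts, a log2 fold change of 0.51 ± 0.15 (SE; adjusted p = 0.00669), though adjusted p was 0.0896 without control replicate 3.

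Other calls named from the folate list were each lost in 3 or more alternative fits. Mthfd1l, the mitochondrial relative of Mthfd1, had 37, 55 and 68 counts in controls and 35, 40 and 48 in Rnf40 cko, with a log2 fold change of -0.64 and adjusted p = 0.0160 (quasi-likelihood test of edgeR with Benjamini-Hochberg adjustment), which was 0.131 without Rnf40 cko replicate 1, 0.0529 without control replicate 2, 0.0571 without control replicate 3 and 0.155 with total-count scaling. Aldh1l1, which oxidises formyl-folate, had a log2 fold change of -0.92 with adjusted p = 0.0174, and 0.0996 without Rnf40 cko replicate 1, 0.0912 without control replicate 2 or 0.0840 with total-count scaling. Mthfd2l and the folate receptor gene Folr2 had log2 fold changes of -1.11 and -1.17, and each lost its call without control replicate 3 or Rnf40 cko replicate 2, with adjusted p between 0.0511 and 0.0678. Tyms, the thymidylate synthase, had 7, 6 and 9 counts in controls and 18, 4 and 8 in Rnf40 cko and was not tested. With DESeq2, adjusted p was 0.0824 for Mthfd1l, 0.0772 for Aldh1l1, 0.0582 for Mthfd2l and 0.0604 for Folr2, and 3 genes of the list passed. That fit had 1172 of all tested genes higher and 1287 lower. The list had 5 calls without control replicate 2, 3 without control replicate 3 and 5 without Rnf40 cko replicate 1. Over all genes, calls were 1399 higher and 1519 lower, 1294 and 1442, and 1420 and 1482 in these fits, beside 1757 and 1841 with all libraries.

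Genes that use glycine, methionine or serine further on were listed as well, and calls in them stand beside 31.6% of all tested genes. In the glycine cleavage and serine breakdown list, 4 of 7 genes were tested and 1 rose, Dld, with a log2 fold change of 0.37 ± 0.10 (SE; adjusted p = 0.00484 in the quasi-likelihood test of edgeR with Benjamini-Hochberg adjustment, and 0.0608 without control replicate 3). Dld is also a subunit of other mitochondrial dehydrogenase complexes. In the methionine cycle and transsulfuration list, 0 of 7 tested genes passed by edgeR, 0 had an unadjusted p under 0.05 and 0 passed by DESeq2, while 2 were higher with total-count scaling, and the median was 0.08. Mat2a, which makes S-adenosylmethionine, had 539, 568 and 550 normalized counts in controls and 635, 571 and 636 in Rnf40 cko, a log2 fold change of 0.15 ± 0.09 (SE; adjusted p = 0.209).

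Of the genes that place serine in lipids, 10 of 14 were tested, and 3 rose and 2 fell with a median log2 fold change of 0.14 (quasi-likelihood test of edgeR with Benjamini-Hochberg adjustment). With total-count scaling 5 rose and 1 fell and the median was 0.41, beside 0.26 for all genes. Pisd, which decarboxylates phosphatidylserine, fell by 0.89 on the log2 scale (SE 0.17, adjusted p = 9.9e-05) and passed in all 12 alternative fits, although 14.7% of its 50-base windows occur elsewhere in the genome. Ptdss1, a phosphatidylserine synthase, had 117, 174 and 142 normalized counts in controls and 105, 96.1 and 102 in Rnf40 cko, with a log2 fold change of -0.52 ± 0.14 (SE; adjusted p = 0.00376, 0.0770 without control replicate 2 and 0.142 with total-count scaling). The serine incorporator genes Serinc1 and Serinc5 rose by log2 fold changes of 0.30 and 0.31 (adjusted p = 0.00549 and 0.0113). Serinc1 lost its call without control replicate 1 (adjusted p = 0.0523), and Serinc5 did so without control replicate 1, control replicate 3 or Rnf40 cko replicate 2 (adjusted p between 0.0530 and 0.0657). Left out one at a time, control replicates 1, 2 and 3 and Rnf40 cko replicate 2 brought the calls of this list to 2, 3, 3 and 3. Sptssa, a small subunit of serine palmitoyltransferase, had 0.36 (adjusted p = 0.0235) and passed in only 2 of 6 fits with a library left out, namely those without Rnf40 cko replicate 1 or 3. Without Rnf40 cko replicate 2 the log2 fold change of Sptssa was 0.19 with adjusted p = 0.229, and with DESeq2 adjusted p was 0.0584.

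Atf4 itself was lower in Rnf40 cko nerves. Atf4 (chr15:80085614-80087970, plus strand) had 193, 264 and 342 counts in controls and 244, 155 and 260 in Rnf40 cko, or 298, 280 and 286 against 196, 182 and 202 normalized counts. Both genotypes were tight and did not overlap, with means of 288 ± 9.29 and 193 ± 10.4 (SD, n = 3 each). Atf4 had a log2 fold change of -0.57 ± 0.10 (SE; 95% confidence interval -0.78 to -0.36; adjusted p = 3.93e-05 in the quasi-likelihood test of edgeR with Benjamini-Hochberg adjustment), and it passed in all 12 alternative fits. As ATF4 is regulated largely at translation, its RNA does not give its protein level, which was not measured here.

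Among the 10 genes of the ATF4 and eIF2 list, all tested, 4 rose and Atf4 alone fell, beside 15.5% of all tested genes higher and 16.2% lower. Ppp1r15a, which encodes a stress-inducible phosphatase subunit that reverses eIF2 phosphorylation, rose from 219, 239 and 182 to 370, 377 and 373 normalized counts. All Rnf40 cko libraries were above all controls, and the log2 fold change was 0.81 ± 0.11 (SE; adjusted p = 1.24e-07 in the quasi-likelihood test of edgeR with Benjamini-Hochberg adjustment). Ppp1r15b, the constitutive counterpart, rose by a log2 fold change of 0.37 (adjusted p = 0.00278), and both passed in all 12 alternative fits. Eif2s1, the phosphorylated subunit of eIF2, of whose 50-base windows 14.3% occur elsewhere in the genome, had 0.62 (adjusted p = 0.0167), and lost its call without control replicate 2, control replicate 3 or Rnf40 cko replicate 1 (adjusted p between 0.0548 and 0.0797) or with DESeq2 (0.0829). Without each of these 3 libraries, and with DESeq2, 3 genes of the list passed. The kinase gene Eif2ak4 had 0.55 (adjusted p = 0.0499) and passed in 0 of 6 fits with a library left out, where adjusted p ran from 0.0548 to 0.191, and neither with DESeq2 (0.169) nor without a filter on low counts (0.0667). The 3 other eIF2 kinase genes, Eif2ak1, Eif2ak2 and Eif2ak3, did not pass, with log2 fold changes of 0.08, -0.28 and -0.19.

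Of 18 listed textbook ATF4 targets outside serine synthesis 12 were tested, and 0 rose and 3 fell in the quasi-likelihood test of edgeR with Benjamini-Hochberg adjustment, beside 15.5% of all tested genes higher and 16.2% lower. Of these targets 1 was higher at an unadjusted p under 0.05 and 0 were higher by DESeq2, whereas 2 rose and 1 fell with total-count scaling, and the median log2 fold change of -0.15 became 0.12 with that scaling, beside 0.26 for all genes. Vegfa, an angiogenic factor, had 134, 118 and 132 normalized counts in controls and 71.6, 68.0 and 83.8 in Rnf40 cko. It fell by 0.77 on the log2 scale (SE 0.15, adjusted p = 8.16e-05) and passed in all 12 alternative fits. Nupr1 and Aldh18a1 had log2 fold changes of -0.54 and -0.53 (adjusted p = 0.0218 and 0.0483). Nupr1 lost its call without control replicate 2 or 3 or Rnf40 cko replicate 1 or 2 (adjusted p between 0.0570 and 0.111), with DESeq2 (0.0991) and with total-count scaling (0.238). Aldh18a1 lost it without control replicate 1, 2 or 3 or Rnf40 cko replicate 1 (adjusted p between 0.0529 and 0.306, and a log2 fold change of -0.32 without the last), with DESeq2 (0.171), with total-count scaling (0.340), with RLE scaling (0.0512) and without a filter on low counts (0.0517), and passed in 3 of 12 alternative fits. The list had 1 call without control replicate 2, control replicate 3 or Rnf40 cko replicate 1. Ddit3, the gene of the stress factor CHOP, had 8, 16 and 21 counts in controls and 19, 24 and 22 in Rnf40 cko, overlapping after scaling, with a log2 fold change of 0.29 ± 0.33 (SE; adjusted p = 0.549). Trib3 with 4, 2 and 2 against 5, 2 and 8 counts and Chac1 with 0, 5 and 1 against 0, 1 and 1 counts were too low for a test.

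The amino acid carriers that ATF4 is known to raise were lower where they passed. Of 9 listed genes 7 were tested, and 0 rose and 3 fell in the quasi-likelihood test of edgeR with Benjamini-Hochberg adjustment, beside 15.5% of all tested genes higher and 16.2% lower. Of the carriers 1 was higher at an unadjusted p under 0.05 and 0 were higher by DESeq2, whereas 1 rose and 2 fell with total-count scaling. The median log2 fold change was -0.27, and -0.01 with total-count scaling, where that of all genes was 0.26. Their summed level was 841, 993 and 946 CPM in controls and 622, 620 and 601 CPM in Rnf40 cko. Slc38a2, a carrier of small neutral amino acids including serine, was the most abundant, with 449, 851 and 979 counts in controls and 526, 341 and 555 in Rnf40 cko. In normalized counts this was 693, 901 and 819 against 423, 400 and 430, so that the 3 Rnf40 cko libraries were close together and far below the controls. Slc38a2 fell by 48.1%, a log2 fold change of -0.95 ± 0.10 (SE; 95% confidence interval -1.15 to -0.75; adjusted p = 6.98e-10).

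Slc3a2 and Slc7a5 encode the heavy and light chains of the same large neutral amino acid carrier. Slc3a2 went from 259, 330 and 311 to 196, 173 and 198 normalized counts, with a log2 fold change of -0.67 ± 0.11 (SE; adjusted p = 7.13e-06 in the quasi-likelihood test of edgeR with Benjamini-Hochberg adjustment). Slc7a5 went from 110, 123 and 97.0 to 59.5, 89.1 and 68.3, with a log2 fold change of -0.62 ± 0.16 (SE; adjusted p = 0.00306, and 0.0858 with total-count scaling). Neither gene had overlapping genotypes. Slc7a11, the cystine carrier, had 1, 1 and 0 counts in controls and 4, 5 and 6 in Rnf40 cko and was not tested.

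**Figure D3:**
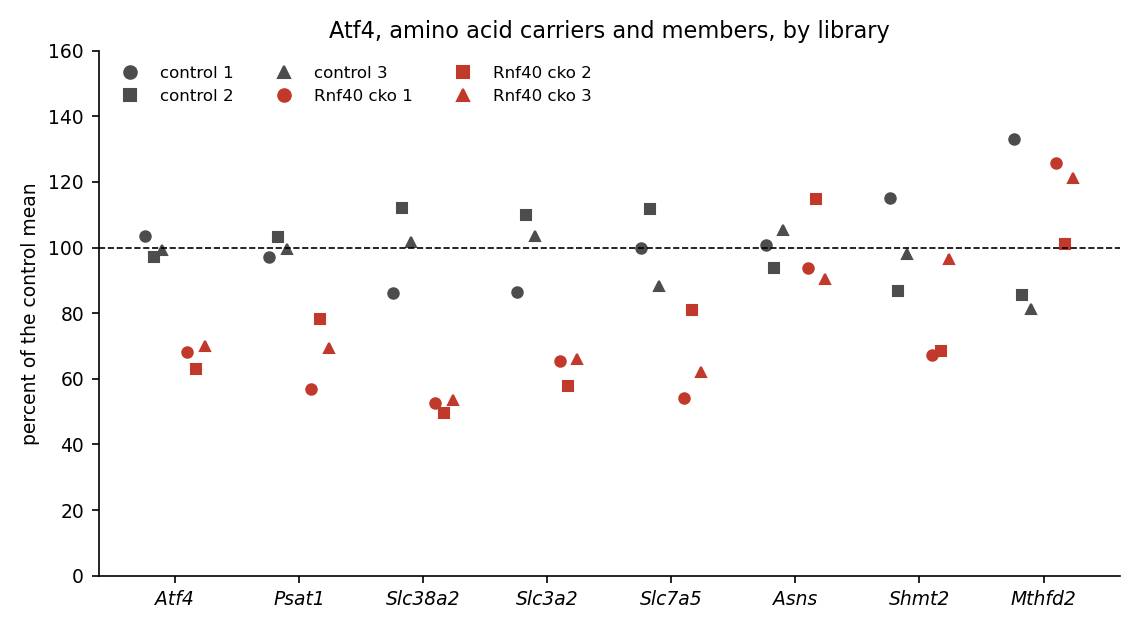
Normalized counts of Atf4, 3 amino acid carriers and 4 members in each library as percent of the control mean (vertical axis from 0; dashed line, 100); gray points are controls, red points Rnf40 cko. Rnf40 cko libraries lie at 63.1 to 70.1% for Atf4, 56.9 to 78.1% for Psat1 and 49.7 to 53.5% for Slc38a2, below all controls, and overlap with controls for Asns, Shmt2 and Mthfd2.

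Cytosolic tRNA synthetases, many of which are also ATF4 targets, mostly did not pass. All 20 were tested, and 2 rose and 1 fell, with a median log2 fold change of 0.09 (quasi-likelihood test of edgeR with Benjamini-Hochberg adjustment), beside 15.5% of all tested genes higher and 16.2% lower. With total-count scaling 11 rose and 0 fell and their median was 0.36, while 3740 of all 11371 genes were higher and the median of all was 0.26. Tars rose by 0.46 on the log2 scale (adjusted p = 0.00461) and passed in all 12 alternative fits. Farsa had 0.73 (adjusted p = 0.0198), and lost its call without control replicate 1, control replicate 2 or Rnf40 cko replicate 2 (adjusted p between 0.0535 and 0.0771) or with DESeq2 (0.0923). Vars fell by 0.77 on the log2 scale (adjusted p = 0.00556, and 0.0631 with total-count scaling). Among 7 other factors known to act on serine synthesis genes, Mycn, which had 6, 22 and 13 counts in controls and 35, 33 and 43 in Rnf40 cko, had a log2 fold change of 1.16 ± 0.31 (SE; adjusted p = 0.00329, and 0.0530 without control replicate 3). The methyltransferase gene Ehmt2 fell by 0.58 on the log2 scale (adjusted p = 0.000723, and 0.0614 with total-count scaling). The other 5, Myc, Nfe2l2, Kdm4c, Tfeb and Mtor, did not pass. This list had 1 call without control replicate 3.

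**Figure D4:**
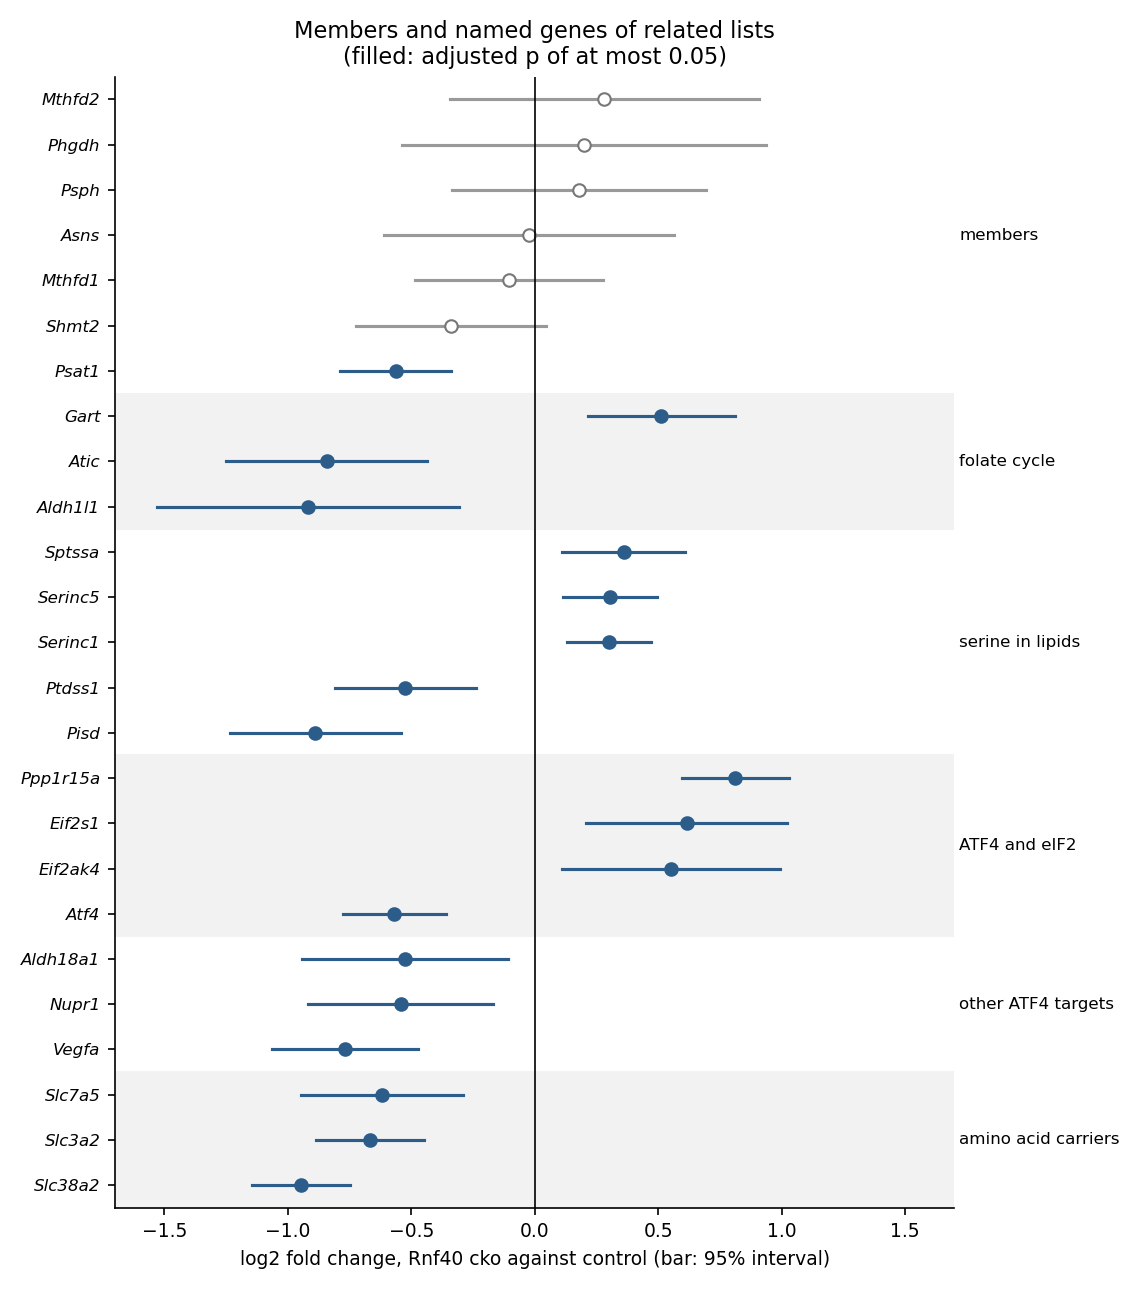
Log2 fold changes (horizontal axis, Rnf40 cko against control) with 95% confidence intervals for the 7 tested members and, by list, some of the other genes that passed the test and are named in the text; filled points passed at an adjusted p of at most 0.05 and open points did not. Of the members only Psat1 is filled at -0.56, and Slc38a2 at -0.95, Slc3a2 at -0.67 and Slc7a5 at -0.62 lie on the same side.

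Markers of the cells of the nerve were counted likewise, beside 31.6% of all tested genes that passed. All 8 Schwann cell markers passed, 2 higher (Egr2, Foxd3) and 6 lower, with a median log2 fold change of -0.73. Sox10 and S100b fell by 0.79 and 0.89 on the log2 scale. Median log2 fold changes were -0.32 for fibroblast markers (0 higher and 5 lower of 6 tested; most abundant Col3a1), -0.47 for perineurial markers (1 higher and 3 lower of 4; Tjp1), -0.54 for endothelial markers (0 higher and 4 lower of 6; Cdh5) and -0.54 for pericyte and smooth muscle markers (0 higher and 4 lower of 6; Pdgfrb). Tjp1 was the most abundant over both genotypes together, whereas in controls Itgb4 had a mean of 462 CPM and Tjp1 one of 373 CPM. The study lists Itgb4 among genes with both less H2B monoubiquitination and lower expression in Rnf40 cko nerves. Whether its fall is perineurial was not tested. For macrophage markers the median was -0.47 (0 higher and 5 lower of 7; Csf1r), for mast cell markers -1.03 (0 higher and 3 lower of 5; Cpa3) and for adipocyte markers -0.65 (0 higher and 2 lower of 5; Adipoq), the latter being -0.40 without Rnf40 cko replicate 3. Cycling cell markers had a median of 0.46 (3 higher and 0 lower of 7; Mki67), which was 0.23 without control replicate 2. T cell markers summed to 1.64 to 2.66 CPM in controls and 5.97 to 11.8 CPM in Rnf40 cko, where Cd4 alone was tested and rose, Cd3d, Cd3e and Cd3g had 0 to 4 counts in each library and Cd8a was at 0 in all libraries. Neuron markers summed to 17.2 to 28.6 CPM, and 1 of 2 tested, Snap25, rose. The other tested neuron marker did not pass, with a log2 fold change of -0.72. Stmn2, the most abundant of that list, had a mean of 59.1% of the control mean in Rnf40 cko. The median of the list was 0.39, and -0.82 over 3 tested genes without control replicate 1. With total-count scaling, beside 0.26 for all genes, the medians were -0.47 for Schwann cell, -0.06 for fibroblast, -0.20 for perineurial, -0.27 for endothelial, -0.27 for pericyte and smooth muscle and -0.21 for macrophage markers. By staining of P14 nerves, the study found a comparable share of Sox10-positive Schwann cells in both genotypes. It found more Iba1-positive macrophages in Rnf40 cko, whereas the macrophage markers that passed here were lower. Marker RNA is therefore not a count of cells. The part of these cell types in the fall of Psat1 and of the amino acid carriers was not tested.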

How the data were processed

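RNA-Seq libraries of P14 sciatic nerve from 3 control and 3 Rnf40 cko pools were analysed, with genotype and replicate number from the sample labels. According to the methods of the study, reads were aligned to mm9 with TopHat and uniquely mapped reads assigned to genes with HTSeq. The authors deposited raw counts per gene, without normalization. Submitters' processing notes also list Bowtie2 and mm10, and the labels and methods name different library kits. Gene annotation, read length and strand setting are not given in the sources used here. All entries name a gene.

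The counts were fitted with edgeR 4.0.16 under R 4.3.3 (filterByExpr, TMM, genotype as single term, robust quasi-likelihood test, Benjamini-Hochberg adjustment over all 11371 genes), with 0.05 as the highest adjusted p for a call. The procedure was also run on counts simulated from the spread it had estimated itself, with changes placed only in genes of higher counts. That run does not check the assumptions of the model or the recovery of changes in members with low counts. The study itself used DESeq2. Standard errors were derived from the log2 fold change and the statistic of the quasi-likelihood test. The 95% confidence intervals were built from these standard errors with a t distribution, and both are approximations. Normalized counts are counts scaled by TMM-adjusted library size to a common size, and CPM use the same library sizes. Exon lengths, positions and transcripts are from GENCODE vM1 (NCBIM37). Transcripts were aligned to that genome with megablast to find copies.

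The 12 alternative fits were RLE or total-count scaling, DESeq2 1.42.0, no filter on low counts, at least 10 counts in every library, a replicate block, and each library left out in turn. The stricter limits were another alternative, applied to the main fit as a call rule and not counted among the 12. With total-count scaling the median log2 fold change of all genes was 0.26, and log2 fold changes under it are to be read relative to that shift.

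Members and lists were chosen with earlier results of these data known. Genes named were the members, Rnf40, Atf4, from each list up to 3 called genes with the largest rise and 3 with the largest fall at a base mean of at least 20, and Tyms, Mthfd1l, Mat2a, Slc7a11, Trib3, Ddit3 and Chac1 whatever their values, besides the 5 genes most like Phgdh and Asns. Mthfd2l, Folr2, Ppp1r15b, the other eIF2 kinases, the other regulators and single markers were named after their values were seen. Some genes that the rule would name are not reported here, but remain in the counts of their lists.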

Additional observations from a re-analysis of the deposited data

How the results depend on the processing

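Psat1, Atf4, Slc38a2 and Slc3a2 kept their direction and passed in all 12 alternative fits, and of these 4 genes Slc38a2 alone also passed under the stricter limits. Psat1 ranged from -0.66 to -0.30 in log2 fold change. With total-count scaling, 3740 genes were higher and 886 lower (19.2% of calls lower, as compared to 51.2% with TMM, where 1757 were higher and 1841 lower), 2 methionine genes and 11 tRNA synthetases passed, Rnf40 was at -0.27, Mthfd1 at 0.16 and Asns at 0.24, with the median of all genes at 0.26. With DESeq2, 3 folate genes, 3 genes of the ATF4 and eIF2 list and 1 other ATF4 target passed, beside 1172 of all 11371 genes higher and 1287 lower. Without a filter on low counts, 1 methionine gene passed (Cbs, with 0, 0 and 0 counts in controls and 4, 2 and 8 in Rnf40 cko), and with at least 10 counts in every library 1 other regulator passed.

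Under the stricter limits 415 genes were higher and 567 lower. Then 0 members, 4 folate, 0 glycine cleavage, 1 serine lipid, 1 ATF4 and eIF2, 0 other ATF4 target, 1 carrier, 0 tRNA synthetase and 1 other regulator gene passed.

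With each library left out in turn, 1 to 2 members passed, the 2 being without Rnf40 cko replicate 3. Passing genes ranged over 3 to 8 for folate, 0 to 1 for glycine cleavage, 2 to 6 for serine lipids, 3 to 5 for the ATF4 and eIF2 list, 1 to 3 for other ATF4 targets and 1 to 3 for other regulators. Calls over all genes moved as well. They ranged from 1294 higher and 1442 lower without control replicate 3 to 1916 higher and 1992 lower without Rnf40 cko replicate 3. Log2 fold changes ranged over -0.31 to 0.43 for Phgdh, -0.091 to 0.35 for Psph, -0.53 to -0.22 for Shmt2, -0.25 to 0.0047 for Mthfd1, 0.14 to 0.49 for Mthfd2 and -0.12 to 0.047 for Asns. Median log2 fold changes ranged over -0.12 to 0.022 for members, -0.086 to 0.28 for glycine cleavage, 0.021 to 0.13 for methionine, 0.074 to 0.18 for serine lipids, -0.21 to -0.060 for other ATF4 targets, -0.44 to -0.24 for carriers and 0.032 to 0.12 for tRNA synthetases. The cause was not tested.

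Replicate numbers are shared by both genotypes, but same-numbered libraries did not deviate together (r = -0.09, -0.02 and -0.06 across 11371 genes, which are not independent), so the numbers were not taken to pair libraries. With the replicate block 1727 genes were higher and 1837 lower, and Psat1 was at -0.56. No call of a member changed. Of the other genes named here, Eif2ak4 and Aldh18a1 lost their calls (adjusted p = 0.0582 and 0.0553 in the quasi-likelihood test of edgeR with Benjamini-Hochberg adjustment).

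With 1317167 to 2468765 counts per library, fold changes of members with about 15 to 30 normalized counts had standard errors of 0.25 to 0.36 on the log2 scale. All p-values rest on 3 pools per genotype. They combine the spread between pools with counting noise and with estimates of spread shared across the tested genes.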
